A study of Mus musculus with 8 samples.

Results

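The antioxidant and glutathione genes are the enzymes, transporters and regulators with which a cell makes glutathione, reduces peroxides, detoxifies quinones and aldehydes and stores iron. They were chosen by gene name from a table of 17922 rows, and 72 rows matched, each with its own symbol. The rule set the known targets of the transcription factor NRF2 (34 of the 72) against the other 38 members. At least 1 FPKM (sequenced fragments per unit of gene length and of library size) in at least 1 library was reached by 33 of the listed targets and 37 of the others. The exporter Abcc2 and the transferase Gstt4 stayed under it. Because the set was drawn up with the FPKM values of these libraries already known, all of its levels and counts are descriptions.

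NRF2, the product of Nfe2l2, is held at a low level by KEAP1, which presents it to a CUL3 ubiquitin ligase. Oxidants and electrophiles modify KEAP1, and NRF2 then accumulates, pairs with a small MAF protein and binds antioxidant response elements near its target genes. Its activity is therefore set largely at the level of the protein, and the mRNA of Nfe2l2 need not follow it. Fibroblasts in culture express much of this system, and pluripotent stem cells rely on several of its members, among them GPX4.

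Mouse embryonic fibroblasts (MEFs) were reprogrammed to induced pluripotent stem cells (iPSCs), with 1 long RNA library for each of 4 stages. All came from the C57BL/6 strain, and the MEFs, from fetuses of 13.5 days, carried the tetO-OSKM transgene (Pou5f1, Sox2, Klf4 and Myc under a doxycycline-responsive promoter). The stages were MEFs (day 0), cells at day 3 and at day 6 after 2 ug/ml doxycycline was added, and fully reprogrammed iPSCs derived from the MEFs. Reprogramming took place in serum replacement medium with LIF, N-2 supplement, 3 uM of the GSK3 inhibitor CHIR99021 and 100 uM of the reducing agent beta-mercaptoethanol. The labels used here do not say which medium the MEFs had before induction or the iPSCs grew in, whether feeder cells were present, or whether the iPSCs were 1 clone. Effects of the factors, of doxycycline and of the medium cannot be told apart.

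The markers matched the labels, with 8 pluripotency markers summing to 1.30, 4.80, 11.1 and 1874 FPKM in MEFs, day 3 cells, day 6 cells and iPSCs, and 9 fibroblast markers to 7520, 7191, 7365 and 196 FPKM from MEFs to iPSCs. At day 3 and day 6 the pluripotency sum was mostly Pou5f1 (3.03 and 8.56 FPKM) and Sox2 (1.19 and 2.03), both factors of the transgene. The other pluripotency markers were under 1 FPKM in these 2 libraries. The part of the transgene in these values was not tested. Depth is not stated. A rough estimate, the most frequent ratio of the lowest values, gave 0.637 for the fragments of the day 3 library relative to the MEF library, 1.04 for day 6 and 1.01 for iPSCs, and rested on only 21 of 920 rows for day 3. With 1 library per stage there is no error and no test, and every difference below is one between 2 libraries. Differences are in log2(FPKM + 1), which understates those of weakly expressed genes. To be called higher or lower, a gene needed a difference of 1 or more (2-fold) and 1 FPKM or more in the higher library. A smaller rule of 0.5 (1.41-fold), added after the values were seen, was also used for the early stages, where over the rows averaging 10 to 100 FPKM the central 95% of differences between day 6 and MEFs lay between -0.61 and 0.45. A level in bulk RNA does not separate fewer cells of a type from less RNA per cell.

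At day 6 most listed NRF2 targets stood above MEFs, 30 of 33 by any amount, while the other antioxidant genes were divided, with 16 of 37 above. By the 2-fold rule 9 of 31 listed targets compared exceeded MEFs at day 6 and 0 were lower, while of 36 other members 0 were higher and 1, the carbonyl reductase gene Cbr2, was lower. Over all 11816 rows compared 0.77% were higher and 0.584% lower. The smaller rule called 19 of the 31 targets higher and 0 lower, against 0 higher and 3 lower of the 36 others (Cbr2, Gpx7 and Gstm7), with a background of 3.39% higher and 5.05% lower. In both counts Gsta1, Gsta2, Gsta3 and Mgst2, under 1 FPKM in MEFs, were compared only through the day 6 library in which they were high. The median difference was 0.54 over the 33 targets (quartiles 0.23 and 1.04), -0.06 over the 37 other members (quartiles -0.35 and 0.18) and -0.01 over 13101 rows. The targets below their MEF value were Gstm2, Gstm4 and Cbr1. Apart from Cbr2, Gpx7 and Gstm7, the other members lay between -0.50 for Gpx3, which just missed the smaller rule, and 0.49 for Nfe2l3.

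**Figure D1:**
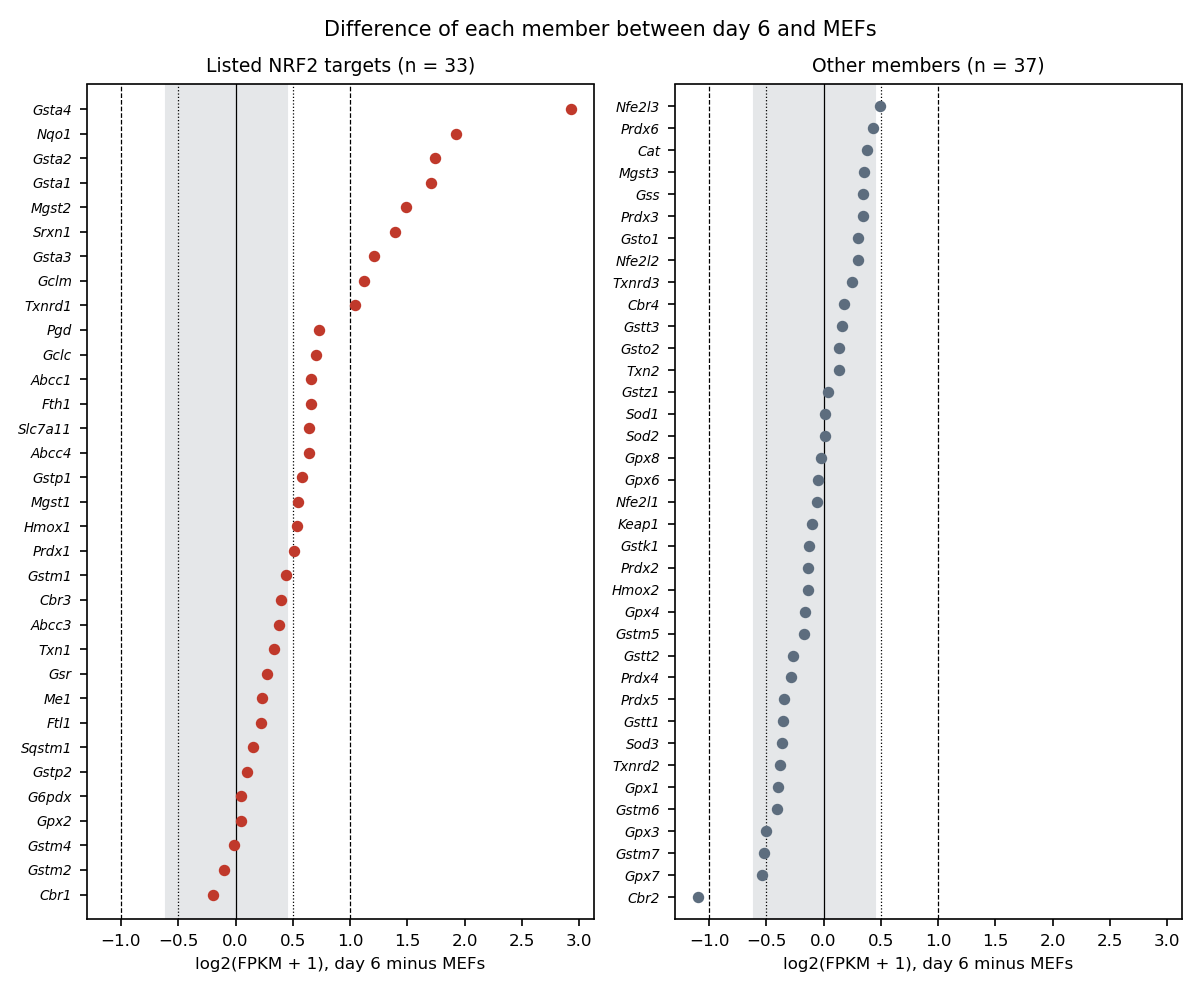
Each point is the difference in log2(FPKM + 1) between the day 6 and the MEF library for 1 member, listed NRF2 targets on the left and other members on the right. Grey marks the central 95% of rows averaging 10 to 100 FPKM, dotted and dashed lines the rules of 0.5 and 1. The targets reach from -0.19 for Cbr1 to 2.93 for Gsta4, and 19 lie past 0.5, while the other members end at 0.49.

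Nqo1, Srxn1 and Txnrd1 were among the 9 members past the 2-fold rule at day 6 against MEFs. Nqo1, whose product reduces quinones without releasing semiquinone radicals, was at 41.2, 62.3, 159 and 15.4 FPKM in MEFs, day 3 cells, day 6 cells and iPSCs. It was highest at day 6, with a difference from MEFs of 1.92 that ranked 19 among the 11816 rows. Srxn1, the sulfiredoxin that restores overoxidised peroxiredoxins, was at 18.2, 18.0, 49.4 and 10.1 FPKM across the same 4 libraries. Its MEF and day 3 values were nearly the same and its day 6 value stood 1.39 above MEFs on the log2 scale. Txnrd1, the cytosolic thioredoxin reductase and a selenoprotein, was at 56.2, 56.3, 117 and 73.5 FPKM from MEFs to iPSCs. Like Srxn1 it departed from MEFs at day 6 and not at day 3, and unlike Srxn1 it was still above MEFs in iPSCs, by 0.38.

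**Figure D2:**
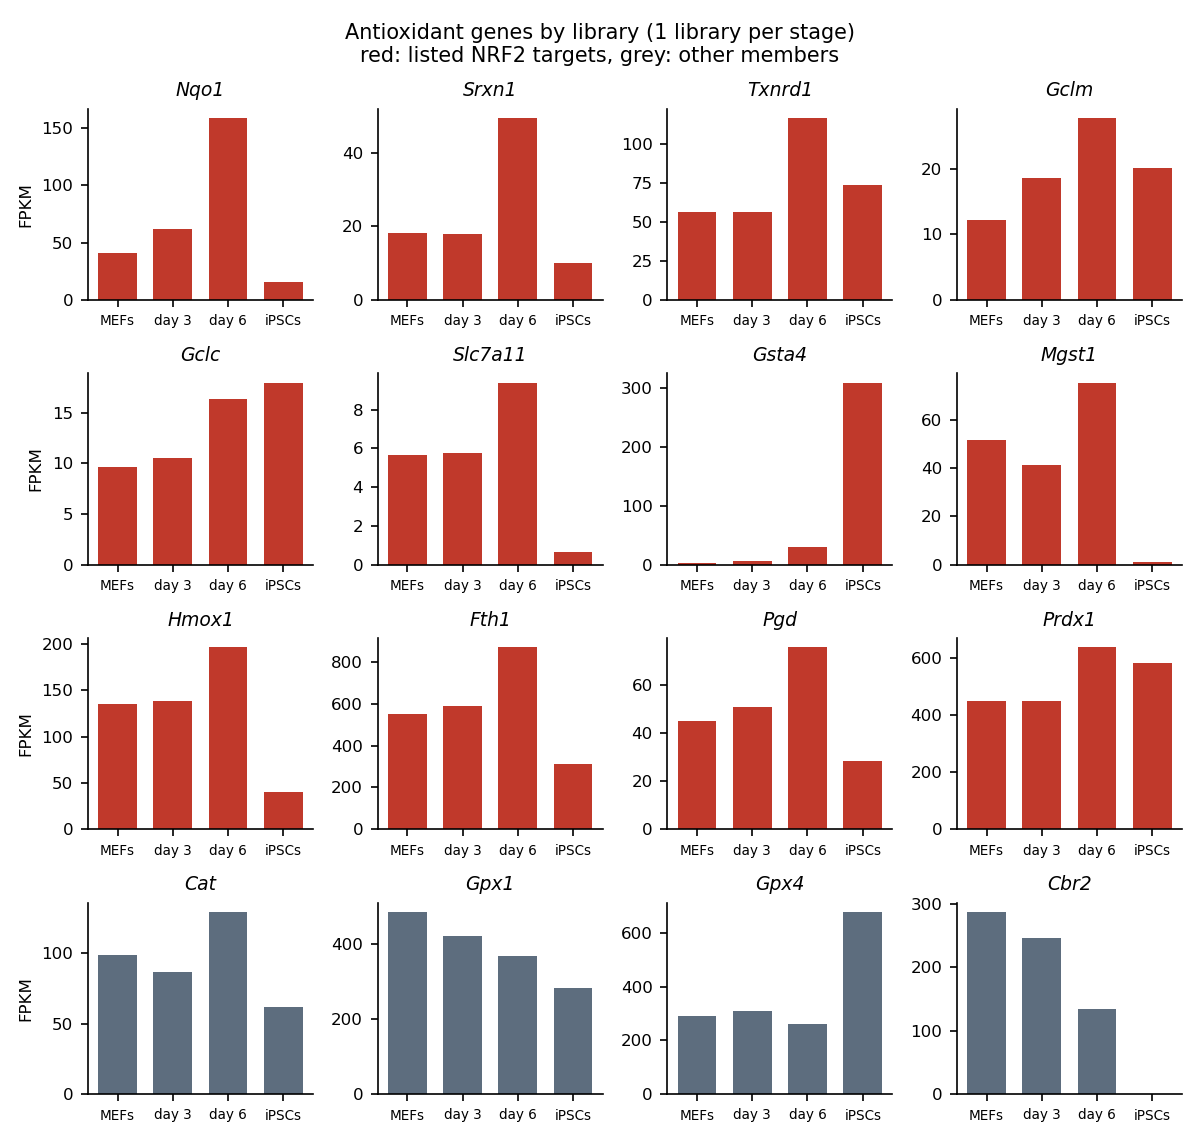
Bars give FPKM (axis from 0) in each of the 4 libraries for 16 members, red for listed NRF2 targets and grey for others. Of the red genes, Gsta4 and Gclc are highest in iPSCs and the others at day 6, and Gpx1 and Cbr2 are lower at each later stage.

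To show what antioxidant response elements look like in these genes, the RefSeq promoter windows of the members (assembly GRCm38.p6, 250 bases before to 50 after each annotated start) were searched on both strands. A window was found for 63 of the 72 members, and not for Abcc1, Abcc3, Gclc, Gsr, Gsta4, Gstt2, Hmox1, Prdx6 and Sod3. The core TGACNNNGC stood in a window of 11 of 28 listed targets (39.3%), of 4 of 35 other members (11.4%) and of 3781 of 27025 genes in all (14.0%), a gene being counted when any of its windows matched. Its variant TGAGNNNGC stood in 6 of the 28 targets (21.4%), 7 of the 35 others (20%) and 19.8% of all genes. The full 9-letter forms TGACTCAGC or TGAGTCAGC, which also contain the AP-1 motif TGACTCA, were searched after the Srxn1 window had been read. They stood in 5 of the 28 targets (17.9%), 0 of the 35 others and 0.929% of all genes. Known targets may have been listed because of such elements, so these shares describe the list and test nothing. Gstp1 and Gstp2 are near copies whose windows share the stretch around the match, so they are not separate cases. Over the 9206 genes at 1 FPKM or more in any library, the core stood in 17.0%, the variant in 23.4% and the full forms in 1.04%. Those 5 windows are printed because they hold the element in full and belong to listed targets, with the 9 letters in capitals as they read on the strand of the gene. Srxn1 lies at chr2:152105274-152105573 on the plus strand, Prdx1 at chr4:116685349-116685648 on the plus strand, Me1 at chr9:86695865-86696164 on the minus strand, Gstp1 at chr19:4037863-4038162 on the minus strand and Gstp2 at chr19:4042172-4042471 on the minus strand.
Srxn1: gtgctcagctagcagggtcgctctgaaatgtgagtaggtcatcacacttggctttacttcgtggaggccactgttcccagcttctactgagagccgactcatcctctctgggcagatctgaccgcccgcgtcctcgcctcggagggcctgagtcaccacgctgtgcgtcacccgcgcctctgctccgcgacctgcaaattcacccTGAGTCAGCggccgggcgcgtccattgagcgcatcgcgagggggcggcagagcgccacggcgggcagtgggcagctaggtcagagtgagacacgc
Prdx1: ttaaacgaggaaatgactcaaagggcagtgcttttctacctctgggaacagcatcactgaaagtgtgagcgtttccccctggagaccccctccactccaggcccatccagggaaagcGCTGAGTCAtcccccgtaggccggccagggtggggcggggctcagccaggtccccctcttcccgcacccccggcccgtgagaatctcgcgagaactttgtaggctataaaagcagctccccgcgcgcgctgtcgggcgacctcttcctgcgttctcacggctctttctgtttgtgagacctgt
Me1: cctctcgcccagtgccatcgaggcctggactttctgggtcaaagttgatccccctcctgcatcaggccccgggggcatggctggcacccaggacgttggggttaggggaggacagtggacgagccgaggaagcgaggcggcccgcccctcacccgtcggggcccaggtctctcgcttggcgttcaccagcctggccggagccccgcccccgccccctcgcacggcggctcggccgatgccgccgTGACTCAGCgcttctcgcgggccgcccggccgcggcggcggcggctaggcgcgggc
Gstp1: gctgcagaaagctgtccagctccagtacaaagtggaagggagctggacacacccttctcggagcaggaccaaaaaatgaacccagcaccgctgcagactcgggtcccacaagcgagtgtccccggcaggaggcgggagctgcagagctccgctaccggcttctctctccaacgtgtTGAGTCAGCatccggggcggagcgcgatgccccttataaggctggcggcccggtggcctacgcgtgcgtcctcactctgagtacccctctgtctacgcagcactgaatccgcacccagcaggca
Gstp2: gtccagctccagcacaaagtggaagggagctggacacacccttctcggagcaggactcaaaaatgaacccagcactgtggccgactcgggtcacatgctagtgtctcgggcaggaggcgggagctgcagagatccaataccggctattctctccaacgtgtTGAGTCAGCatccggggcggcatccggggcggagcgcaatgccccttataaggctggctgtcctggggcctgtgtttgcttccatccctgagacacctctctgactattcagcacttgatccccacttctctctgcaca
In Srxn1 the match ends 37 bases upstream of the annotated start, in Gstp1 66, in Gstp2 81 and in Prdx1, where it reads on the opposite strand, 125. In Me1 it lies across the start. The 5 genes differed in size of change, the differences between day 6 and MEFs being 1.39 for Srxn1, 0.58 for Gstp1, 0.51 for Prdx1, 0.23 for Me1 and 0.10 for Gstp2. A match is a description of the letters and not a measured site, and no match says nothing of elements farther away.

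Glutathione synthesis was above MEFs at day 6 in all 5 of its genes, 1 of them past the 2-fold rule. Gclm, the modifier subunit of the rate-limiting glutamate-cysteine ligase, was at 12.3, 18.6, 27.8 and 20.1 FPKM in MEFs, day 3 cells, day 6 cells and iPSCs. It was 1 of 3 members, with Nqo1 and Gsta4, already past the smaller rule at day 3. The catalytic subunit Gclc was at 9.67, 10.5, 16.4 and 18.0 FPKM from MEFs to iPSCs, so it was highest in iPSCs. Slc7a11, which imports the cystine for glutathione, was at 5.66, 5.78, 9.41 and 0.628 FPKM from MEFs to iPSCs. It had the widest difference of these 5 genes between iPSCs and day 6, at -2.68. Gss, of the last step of synthesis, was at 58.3, 64.1, 74.4 and 37.0 FPKM from MEFs to iPSCs, and Gsr, which regenerates reduced glutathione, at 29.1, 28.6, 35.4 and 46.4 FPKM from MEFs to iPSCs.

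Among 22 glutathione transferases expressed, the alpha class and Mgst2 were higher at day 6. Gsta4, which conjugates the lipid aldehyde hydroxynonenal, was at 3.04, 6.78, 29.7 and 308 FPKM from MEFs to iPSCs, and each library exceeded the one before. Its difference between day 6 and MEFs ranked 7 among 11816 rows. Gsta1 was at 0.0765 FPKM in MEFs, 0.497 in day 3 cells and 2.51 in day 6 cells and was listed at 0 in iPSCs. Gsta2 was at 0.130, 0.365 and 2.77 FPKM over the first 3 stages and also listed at 0 in iPSCs, and Gsta3 was at 0.0637, 0.117, 1.46 and 0.612 FPKM from MEFs to iPSCs. These 3 genes reached 1 FPKM at day 6 and in no other library, so they were compared only through the library in which they were high. Gsta1 and Gsta2 are near-identical copies whose reads the counting could divide either way. Mgst2, a membrane-bound transferase, was at 0.988, 0.489, 4.56 and 1.32 FPKM from MEFs to iPSCs, and its abundant relative Mgst1 at 51.5, 41.2, 75.5 and 1.09 FPKM from MEFs to iPSCs. Mgst2 was under 1 FPKM in MEFs and at day 3, so against them it was compared only through the day 6 library. Of the mu and theta classes Gstm1, Gstm2, Gstm4, Gstm5, Gstm6, Gstm7, Gstt1, Gstt2 and Gstt3 were within the 2-fold rule at day 6, with differences from MEFs between -0.52 for Gstm7 and 0.44 for Gstm1.

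Most of the remaining listed targets were above MEFs at day 6 by smaller steps. Hmox1, which degrades heme and releases its iron, was at 135, 139, 196 and 40.0 FPKM in MEFs, day 3 cells, day 6 cells and iPSCs. The ferritin chains that store that iron were at 552, 587, 870 and 314 FPKM from MEFs to iPSCs for Fth1 and at 1720, 1498, 2002 and 1742 FPKM from MEFs to iPSCs for Ftl1. For Fth1 the difference between day 6 and MEFs was 0.66 and for Ftl1 0.22, so only Fth1 passed the smaller rule. The pentose phosphate enzyme Pgd, a source of NADPH, was at 45.3, 51.0, 75.9 and 28.4 FPKM from MEFs to iPSCs. G6pdx, the first enzyme of the same pathway, was at 35.7, 37.3, 37.0 and 17.2 FPKM from MEFs to iPSCs and did not follow it at day 6, and the malic enzyme Me1 was at 22.6, 26.3, 26.8 and 8.49 FPKM from MEFs to iPSCs. The conjugate exporter Abcc1 was at 33.1, 37.6, 52.7 and 26.6 FPKM from MEFs to iPSCs, and Abcc4 at 5.07, 6.34, 8.47 and 9.42 FPKM from MEFs to iPSCs. Prdx1, the most abundant peroxiredoxin, was at 448, 447, 637 and 583 FPKM from MEFs to iPSCs. Its electron donor Txn1, the cytosolic thioredoxin, was at 190, 196, 241 and 279 FPKM from MEFs to iPSCs, within the smaller rule at day 6. The carbonyl reductases Cbr1 and Cbr3 parted, with Cbr1 at 14.4 FPKM and Cbr3 at 8.25 FPKM at day 6, against 16.6 and 6.04 FPKM in MEFs.

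The difference arose mostly after day 3. Between day 3 and MEFs 0 of 63 members compared passed the 2-fold rule in either direction (background 0.17% higher and 0.0511% lower). By the smaller rule 3 were higher and 0 lower, all 3 among 27 listed targets (background 1.81% and 0.963%), and Gsta4 was just under the 2-fold rule at 0.95. The median over the targets was 0.05 and over the other members -0.04. Between day 6 and day 3 the 2-fold rule called 8 of 31 targets higher, 0 of 36 others higher and 0 members lower (background 0.457% and 0.398%). By the smaller rule these were 15 of 31 targets and 1 of 36 others, the catalase gene Cat, with 1 member lower, Cbr2 (background 2.61% and 3.74%). In both counts Gsta1, Gsta2, Gsta3 and Mgst2, under 1 FPKM at day 3, were compared only through the day 6 library. The medians were 0.48 for the targets and 0.04 for the others. The contrasts with MEFs and with day 3 share the day 6 library, so they are not separate evidence.

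**Figure D3:**
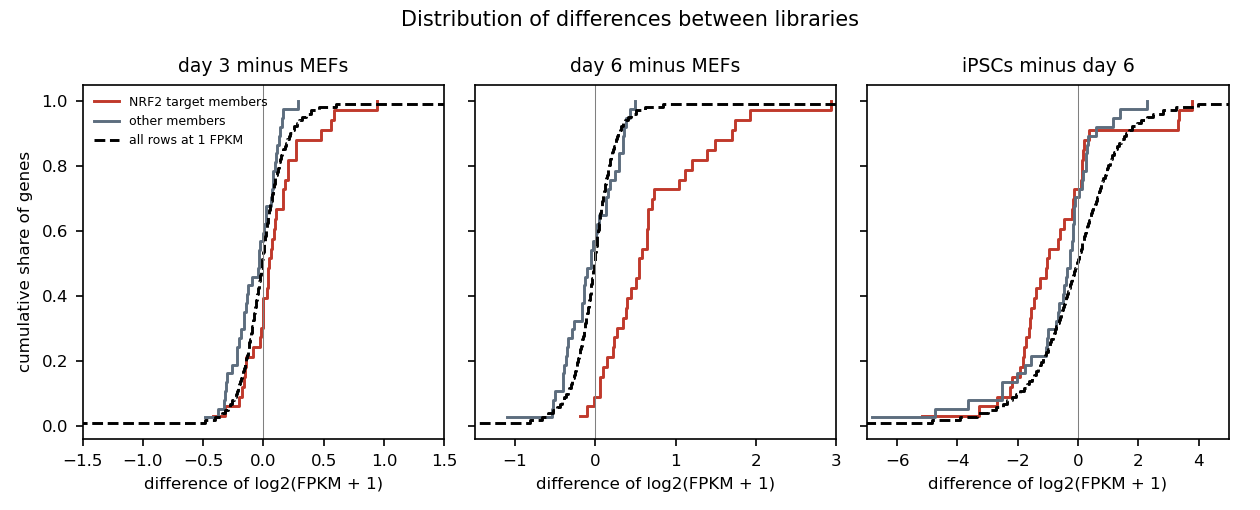
Lines give the cumulative share of genes (vertical axis) at or below each difference in log2(FPKM + 1) (horizontal axis) for 33 listed NRF2 targets, 37 other members and 13101 rows at 1 FPKM or more. The targets lie to the right of both other lines for day 6 minus MEFs, with medians of 0.54, -0.06 and -0.01, and to the left for iPSCs minus day 6 over most of their range.

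The regulators themselves differed little between day 6 and MEFs. Nfe2l2 was at 47.8, 53.2, 59.0 and 37.6 FPKM in MEFs, day 3 cells, day 6 cells and iPSCs, and Keap1 at 10.1, 8.93, 9.33 and 4.07 FPKM from MEFs to iPSCs. Their differences between day 6 and MEFs were 0.30 and -0.10, under both rules. Sqstm1, the autophagy receptor that binds KEAP1 and is also a listed target, was at 303, 275, 337 and 107 FPKM from MEFs to iPSCs. The related factors Nfe2l1, a regulator of proteasome genes, and Nfe2l3 were at 108, 114, 104 and 65.3 FPKM from MEFs to iPSCs and at 2.08, 2.76, 3.33 and 2.61 FPKM from MEFs to iPSCs. Of 7 expressed genes for NRF2 partners, competitors and the KEAP1 ligase (Mafg, Mafk, Maff, Bach1, Cul3, Rbx1 and Btrc) 0 passed either rule at day 6 against MEFs, with a median of -0.0050. Between iPSCs and MEFs only the small MAF gene Mafk among these 7 was called, with 5.22 FPKM in iPSCs and 21.0 in MEFs.

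Of the peroxidases and dismutases that are not listed targets, only Gpx7 passed the smaller rule at day 6 against MEFs. Gpx1, the cytosolic glutathione peroxidase, was at 484, 421, 367 and 281 FPKM in MEFs, day 3 cells, day 6 cells and iPSCs. Sod1, the cytosolic superoxide dismutase, was at 172, 175, 174 and 264 FPKM from MEFs to iPSCs and the mitochondrial Sod2 at 17.3, 17.3, 17.4 and 21.0 FPKM from MEFs to iPSCs. The first 3 values of Sod1 and of Sod2 were nearly the same. The extracellular Sod3 was at 34.8, 36.4, 26.8 and 0.0281 FPKM from MEFs to iPSCs, with day 6 below MEFs by less than the smaller rule. Cat, which breaks down hydrogen peroxide in peroxisomes, was at 99.04, 87.0, 129 and 61.6 FPKM from MEFs to iPSCs. The peroxiredoxins Prdx2, Prdx3, Prdx4, Prdx5 and Prdx6 differed between day 6 and MEFs by -0.35 (Prdx5) to 0.43 (Prdx6). Cbr2, a carbonyl reductase, was at 287, 247, 134 and 0.169 FPKM from MEFs to iPSCs and was the only member below MEFs by the 2-fold rule at day 6.

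**Figure D4:**
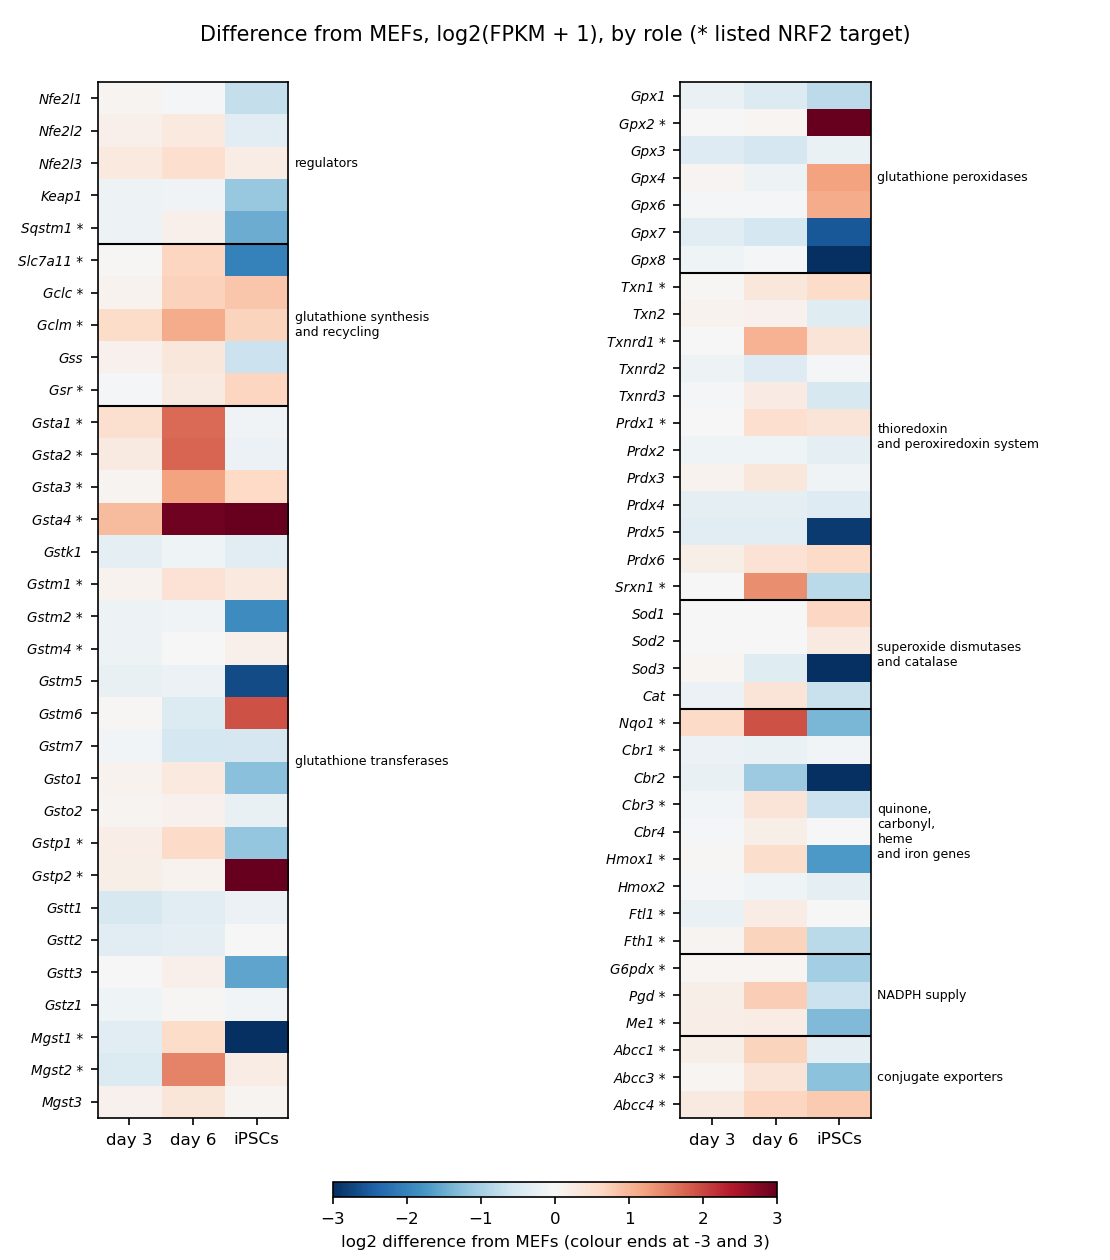
Colour gives the difference in log2(FPKM + 1) from the MEF library for the 70 members at 1 FPKM or more, grouped by role, in the day 3, day 6 and iPSC libraries. The red at day 6 falls mostly on genes marked as listed NRF2 targets, such as Nqo1 at 1.92 and Gsta4 at 2.93, and the iPSC column holds both signs.

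Taking all members together, the sum of their FPKM was 1.38%, 1.37%, 1.72% and 1.34% of the column sum in MEFs, day 3 cells, day 6 cells and iPSCs. A few abundant genes weigh most in it. At day 6 the largest terms were Ftl1 (2002 FPKM), Fth1 (870) and Prdx1 (637) of 7743, against 1720, 552 and 448 of 6717 in MEFs. By any amount 46 of 70 members were above MEFs at day 6 and 24 below. Of the 70 expressed members 35 (50%) had their highest value at day 6, as did 22 of 33 listed targets and 13 of 37 others, against 15.2% of 13101 rows. Day 6 exceeded both MEFs and iPSCs by the 2-fold rule in 5 members (7.14%), which were Gsta1, Gsta2, Mgst2, Nqo1 and Srxn1, and in 0.443% of all rows. By the smaller rule it did so in 14 members, all of them among the 33 listed targets, and in 1.75% of all rows. Gsta1, Gsta2 and Gsta3 reached 1 FPKM only at day 6, so they entered these counts only through the library in which they were high. Mgst2 was under 1 FPKM in MEFs and at day 3.

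In iPSCs the listed targets were mostly below day 6, and a few members were far above it. Of 33 targets compared 17 were lower and 3 higher in iPSCs than at day 6, and of 37 other members 10 were lower and 3 higher. Over all 12951 rows 23.4% were lower and 20.4% higher. The median was -1.04 over the targets, -0.27 over the other members and -0.04 over 13101 rows. Against MEFs 19 members (28.4%) were lower and 6 (8.96%) higher in iPSCs of 67 compared, over a background of 25% lower and 21.1% higher, so the share of lower members was near the background. Rescaling to the same upper quartile moved the median of all rows by 0.11 for iPSCs against day 6 and by 0.16 against MEFs. G6pdx and Keap1 were then no longer called in either contrast, nor Cat and Cbr3 against day 6 or Gstp1 against MEFs, while Gclc was called higher than in MEFs.

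The 27 members lower in iPSCs than at day 6 included several that were close to 0 in iPSCs. Sod3 was at 0.0281 FPKM in iPSCs and 26.8 at day 6, and Mgst1 at 1.09 and 75.5. The plasma peroxidase Gpx3 was not among them, at 22.7 FPKM in iPSCs and 18.2 at day 6. Gpx7 and Gpx8, peroxidases of the endoplasmic reticulum, were at 11.2 and 11.4 FPKM in iPSCs, against 48.1 and 156 at day 6. Prdx5, a peroxiredoxin of mitochondria and peroxisomes, was at 34.9 FPKM in iPSCs and 206 at day 6. Of 6 mitochondrial members (Txn2, Txnrd2, Prdx3, Prdx5, Sod2 and Gstk1) it was the only one called, over a background of 23.4% lower and 20.4% higher. The 3 members listed for NADPH supply (G6pdx, Pgd and Me1) were all lower in iPSCs than at day 6, with a median of -1.39, over the same background. Of these, G6pdx was no longer called after rescaling to the same upper quartile. Gpx8 overlaps Cdc20b, Prdx5 overlaps Trmt112, G6pdx overlaps Ikbkg and Txnrd1 overlaps Eid3 in the RefSeq annotation, by their whole spans. Whether their exons overlap was not examined. With no stated strand setting, reads from any shared stretch could be counted for either gene.

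The 6 members higher in iPSCs than at day 6, which were also those higher than in MEFs, were Gpx2, Gpx4, Gpx6, Gsta4, Gstm6 and Gstp2. Gpx2, Gpx6, Gstp2 and Gstm6 were under 1 FPKM at day 6, and the first 3 of them also in MEFs, so they were compared there only through the iPSC library in which they were high. Gpx4, the selenoprotein that reduces lipid hydroperoxides in membranes, was at 292, 309, 261 and 680 FPKM in MEFs, day 3 cells, day 6 cells and iPSCs. Gpx2, a peroxidase known from gut epithelium, was listed at 0 in MEFs and at day 3 and was at 0.0366 FPKM at day 6 and 9.61 in iPSCs. Gpx6 reached 1.22 FPKM in iPSCs and was at 0.0340 in MEFs or listed at 0. Gstm6 was at 1.16, 1.19, 0.630 and 7.05 FPKM from MEFs to iPSCs. Gstp2 was at 0.285, 0.440, 0.377 and 17.8 FPKM from MEFs to iPSCs, while its neighbour and near copy Gstp1 was at 58.8, 68.0, 88.1 and 26.0 FPKM from MEFs to iPSCs. No source used here says how reads were divided between these copies, so both levels are uncertain.

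Of 6 enzyme families, 3 had another leading member in iPSCs than at day 6 (glutathione transferases, glutathione peroxidases and carbonyl reductases), and 3 kept theirs (peroxiredoxins, superoxide dismutases and thioredoxin reductases). Of the summed FPKM of the 23 transferases, Gsto1, the omega-class enzyme, held 25.6%, 27.8% and 24.4% in MEFs, day 3 cells and day 6 cells, and Gsta4 held 0.771%, 1.73% and 5.84%. In iPSCs Gsta4 held 62.2% and Gsto1 8.36%, while the family sum was 496 FPKM in iPSCs and 509 at day 6. Among 7 glutathione peroxidases Gpx1 led with 47.0%, 44.3% and 43.2% in the first 3 libraries, and Gpx4 led with 66.9% in iPSCs. The sum over these peroxidases was 1032, 950, 850 and 1017 FPKM from MEFs to iPSCs. Prdx1 led the 6 peroxiredoxins in every library, with 41.5%, 44.4%, 52.2% and 59.8%, while Prdx5 held 3.58% in iPSCs and 24.4% in MEFs. Of the summed FPKM of 4 carbonyl reductases, Cbr1 led with 53.0% in iPSCs, and Cbr2 led with 79.6% at day 6.

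**Figure D5:**
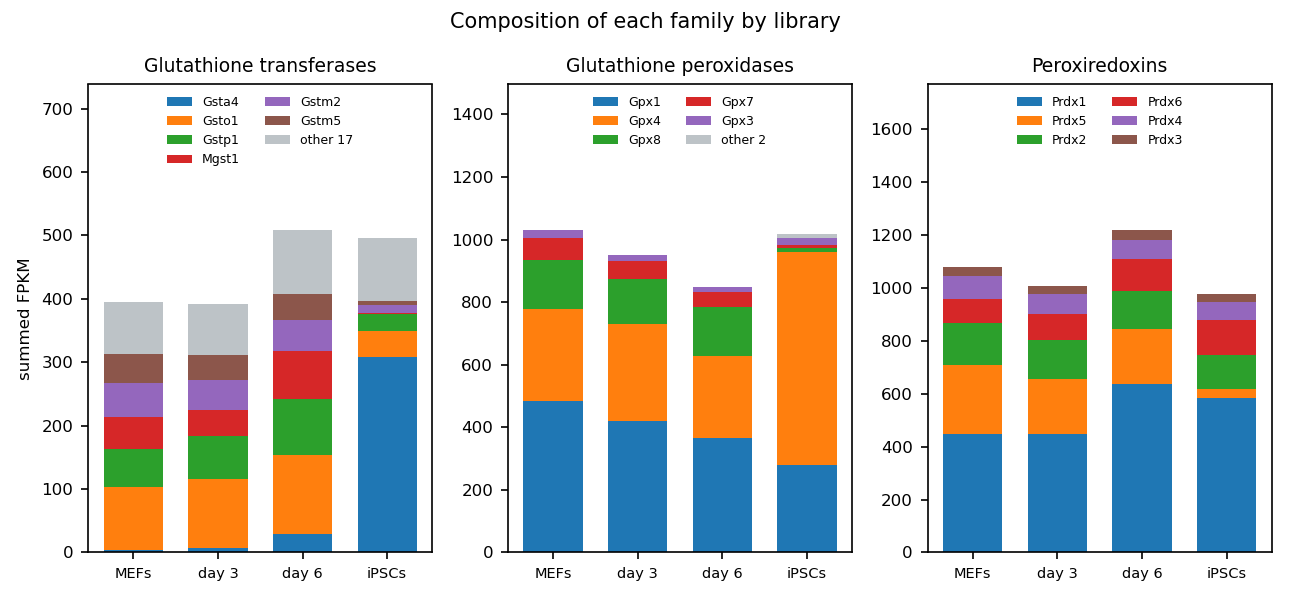
Stacked bars give summed FPKM (axis from 0) of the glutathione transferases, glutathione peroxidases and peroxiredoxins in each of the 4 libraries, coloured by gene. Gsta4 makes up 62.2% of the transferase bar and Gpx4 66.9% of the peroxidase bar in iPSCs, and Prdx1 is the largest part of every peroxiredoxin bar.

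NRF2 targets outside the members were also mostly above MEFs at day 6. Of 17 such genes, listed with earlier results known, 2 were called higher and 0 lower by the 2-fold rule, and 7 were higher and 1 (Idh1) lower by the smaller rule, with 16 of 17 above their MEF value and a median of 0.32. Over all rows 0.77% were higher and 0.584% lower by the 2-fold rule, and 3.39% and 5.05% by the smaller rule. Aldh3a1, an aldehyde dehydrogenase that is also a target of the aryl hydrocarbon receptor, was at 0.360, 9.97, 70.2 and 0.592 FPKM in MEFs, day 3 cells, day 6 cells and iPSCs. Ugt1a6a, a glucuronosyl transferase whose last exons are shared with other Ugt1a forms, was at 1.03, 1.96, 5.00 and 0.0578 FPKM from MEFs to iPSCs. Esd, an esterase, was at 273, 291, 534 and 105 FPKM from MEFs to iPSCs, and Blvrb, a biliverdin reductase, at 15.2, 11.8, 29.0 and 28.6 FPKM from MEFs to iPSCs. Blvrb was called higher against day 3 and not against MEFs.

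Other gene groups were read beside the targets at day 6. The gene of the aryl hydrocarbon receptor, Ahr, which has Nqo1 among its own targets, was at 6.65, 8.48, 23.5 and 2.13 FPKM from MEFs to iPSCs, while its target Cyp1a1 was at 0.0136 FPKM at day 6 and 0.0965 in MEFs, and Tiparp at 21.0 and 25.4. Cyp1b1, another target, was at 215 FPKM at day 6 and 175 in MEFs, and the receptor's repressor Ahrr at 2.40 and 4.81. Of 12 genes regulated by ATF4, which also acts on Slc7a11, 0 were called at day 6 against MEFs by the 2-fold rule and 2, Chac1 and Cth, were lower by the smaller rule, with a median of -0.03. For this contrast 0.77% of all rows were higher and 0.584% lower by the 2-fold rule, and 5.05% lower by the smaller rule. Of 7 keratinocyte markers 5 were expressed and 3 (Krt14, Krt16 and Sprr1a) were higher at day 6, with a list sum of 15.4, 19.1, 33.7 and 28.1 FPKM across the 4 libraries. Most of the iPSC sum was Sfn, at 26.5 FPKM. Krt14, Krt6a and Dsg3 were listed at 0 in MEFs. The macrophage markers summed to 79.3, 59.5, 67.4 and 12.9 FPKM from MEFs to iPSCs, with 0 of 6 expressed markers called at day 6 against MEFs. Most of their iPSC sum was Cd68, at 11.9 FPKM, and 4 of these markers were listed at 0 there. Of 4 endothelial markers, summing to 0.423, 1.31, 2.15 and 29.0 FPKM from MEFs to iPSCs, Tek was higher at day 6 (2.06 FPKM, against 0.262 in MEFs), with Pecam1, Cdh5 and Kdr below 0.2 FPKM in both. In iPSCs Pecam1 was at 26.2 FPKM, Tek at 2.45, Cdh5 at 0.202 and Kdr at 0.0906. The erythroid marker Alas2 was at 3.46 FPKM at day 6 and 0.971 in MEFs. Of 9 fibroblast markers Dcn was higher at day 6 and 0 were lower. The part of these cell types in the day 6 values was not tested.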

How the data were processed

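Long RNA of 4 libraries (MEFs, day 3, day 6 and iPSCs) was analysed, and 4 small RNA samples of the series were not used here. The labels' protocols state that ribosomal RNA was depleted. The deposited table gives 1 FPKM value per gene and library, per the file headers. The submitters' processing notes name HISAT2, Cufflinks and mm9 without stating roles. No source used here gives the gene models, strand setting, filters, pooling or depth. Each FPKM value is a share of its library and not a number of molecules per cell. Identifier and symbol of all 72 members matched a current reference table.

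Differences of log2(FPKM + 1) and the rules of size were computed with Python 3.11.15, pandas 2.3.3 and NumPy 2.4.6, and figures with matplotlib 3.10.9. The 2-fold rule was run on simulated data made from well expressed genes, with planted changes above and below 2-fold. That run checks the code, and not how often the rule errs in these libraries or at low FPKM. Comparisons were over the rows with at least 1 FPKM in either library, and medians over those with at least 1 FPKM in any. The members, the NRF2 target list (Gstm3, also on it, is not analysed here) and the other lists were drawn from general knowledge and chosen with earlier results of these data known. Genes whose values are given are members, or genes of these lists and of the cell type marker lists. Promoter windows are those of RefSeq on GRCm38.p6, and no coordinates were converted from mm9. Alternatives were the pseudocount, the minimum FPKM, the scaling, summed rows of a symbol and a core target list.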

Additional observations from a re-analysis of the deposited data

How the results depend on the processing

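Of 70 counts of members under alternatives 63 stayed within 1.5 times the reported count, and of 75 medians 74 moved by less than 1.5-fold. Some of these could not move. Each member has 1 row, so summing rows changed nothing. A difference of 1 already requires 1 FPKM, so dropping the minimum could not change a count. The medians among MEFs, day 3 and day 6 were themselves under 1.5-fold, so that limit says little of them. For day 6 against MEFs the target median ran from 0.43 (pseudocount 5) to 0.67 (core targets). With 9 members higher and 1 lower at day 6 against MEFs as reported, a pseudocount of 5 gave 3 higher, a minimum of 5 FPKM gave 5 higher, and scaling every library to the same sum gave 0 lower. For day 6 against day 3 (8 higher) the same pseudocount gave 3 and the same minimum 4. For day 3 against MEFs (0 higher) a pseudocount of 0.1 gave 1, and scaling to the same sum gave 1, which was Gsta4. A minimum of 5 FPKM takes out Gsta1, Gsta2, Gsta3 and Mgst2 by construction, since each stays under it at day 6. The median of the listed NRF2 targets for iPSCs against MEFs was -0.11, and -0.73 over the 12 core targets. By the smaller rule, scaling to the same sum gave 2 lower members in place of 0 at day 3 against MEFs and 2 in place of 1 at day 6 against day 3, and scaling to the same upper quartile gave 1 in place of 3 at day 6 against MEFs. No paired analysis was possible because each stage had 1 library, which also left no replicate to omit. Depth is unknown, so the precision of low values cannot be given.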

Other observations

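Other glutathione and redox genes, 23 in a list made with earlier results known, were mixed. By the 2-fold rule 0 of 22 expressed were called at day 6 against MEFs (background 0.77% higher and 0.584% lower). The smaller rule called 2 higher (Ggct and Ggt7) and 5 lower (Chac1, Hagh, Cth, Cbs and Oplah), over a background of 3.39% and 5.05%. In iPSCs 4 of the 22 were called higher and 5 lower than in MEFs, near the background of 21.1% higher and 25% lower over all rows, so the genes below are given as values only. The higher ones were Ggct, Txnip, Cbs and Sephs2. Cbs, which feeds cysteine synthesis from homocysteine, was at 1.41, 0.686, 0.356 and 11.3 FPKM in MEFs, day 3 cells, day 6 cells and iPSCs. Sephs2, which makes the selenium donor for selenoproteins such as GPX4 and TXNRD1, was at 13.4, 10.7, 13.1 and 42.4 FPKM from MEFs to iPSCs. The lower ones were Glrx, Ggt7, Chac1, Chac2 and Msrb3. Msrb3, a methionine sulfoxide reductase, was at 183, 168, 142 and 3.34 FPKM from MEFs to iPSCs, and Chac1, which degrades glutathione, at 20.7, 17.3, 13.9 and 5.69 FPKM from MEFs to iPSCs. Of the pentose phosphate genes outside the members, Taldo1 was at 195 FPKM in iPSCs and 82.6 in MEFs and Tkt at 226 and 111, while the members G6pdx and Pgd were at 17.2 and 28.4 FPKM in iPSCs and at 35.7 and 45.3 in MEFs.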
